A study of Mus musculus with 14 samples.

Results

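The promoters of 10 genes of retinoic acid (RA) signalling were followed in promoter capture Hi-C (PCHi-C) of mouse cranial neural crest cells (CNCCs): the receptors *Rara*, *Rarb* and *Rarg*, the synthesis enzymes *Aldh1a2* and *Aldh1a3*, the degrading enzymes *Cyp26a1*, *Cyp26b1* and *Cyp26c1*, and the binding proteins *Crabp1* and *Crabp2*. PCHi-C enriches a Hi-C library for ligation products that hold a promoter, the bait, and so measures which other DNA fragments lie close to that promoter in the nucleus. The genes were chosen by name, and a bait was taken as theirs if the HindIII fragment held a GENCODE vM21 start site of the gene on mm10. Each of the 10 genes had 1 such bait, of 21626 baits with an annotated start site. A contact is a pair of a bait and another fragment of the same chromosome that a library listed, which in these lists means a CHiCAGO score of 5 or more, and a pair that a library did not list was given a score of 0.

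There were 14 libraries, 2 from each of 7 conditions. Wild-type CNCCs of E10.5 embryos came from 4 places, namely the frontonasal process (FNP), the maxillary process (Mx), the mandibular process (Md) and pharyngeal arch 2 (PA2). Others came from the pinna, the outer ear that forms from PA2, at E12.5 and at E14.5. These cells carried *Wnt1::Cre;ROSA-RFP* and were sorted as RFP-positive, so they are the cells in which *Wnt1*-driven Cre had been active. The mutant condition was E10.5 PA2 of *Hoxa2EGFP/EGFP* embryos, a knockout in which EGFP takes the place of *Hoxa2*, and these cells were sorted as GFP-positive, so that genotype and sorting marker cannot be told apart. Both sexes were pooled, on a mixed background. The lists hold contacts and no transcript levels, so the knockout label could not be checked against *Hoxa2* expression, and, per the methods, the 2 libraries of a condition are independent biological replicates.

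RA is made from vitamin A, with the last oxidation done by the ALDH1A enzymes, and is removed by the CYP26 enzymes. In the cell it is carried by CRABP proteins to receptors of the RAR family, which bind DNA with RXR partners at RA response elements, often direct repeats of a short half-site. In the embryonic head, too much or too little RA causes craniofacial malformations, and the places of RA synthesis and degradation set where cranial neural crest is exposed to it.

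To show which promoter sequence each bait did or did not capture, windows of RefSeq (GRCm38.p6) from 250 bases before to 50 after a start site were searched for RA response elements of the DR5 type. The search took 2 half-sites in the same orientation with 5 bases between them, on both strands. A half-site was AGGTCA or one of its known variants, of which AGTTCA was taken as the first, then GGGTCA as the next, and GGTTCA as the last. DR5 letters were in 32 of all 32851 windows (0.0974%) and in 2 of the 12 windows of these genes, which belong to 8 genes. No window of these genes held the same half-sites 1 or 2 bases apart, spacings found in 0.222% and 0.268% of all windows. Both matching windows are printed 5′ to 3′ on the strand of the gene, with the half-sites in capitals. The *Cyp26a1* window, chr19:37697558-37697857 on the plus strand, lies in the *Cyp26a1* bait, and its match, with half-sites that read AGTTCA on the opposite strand, runs from -32 to -16 relative to the start site.
Cyp26a1: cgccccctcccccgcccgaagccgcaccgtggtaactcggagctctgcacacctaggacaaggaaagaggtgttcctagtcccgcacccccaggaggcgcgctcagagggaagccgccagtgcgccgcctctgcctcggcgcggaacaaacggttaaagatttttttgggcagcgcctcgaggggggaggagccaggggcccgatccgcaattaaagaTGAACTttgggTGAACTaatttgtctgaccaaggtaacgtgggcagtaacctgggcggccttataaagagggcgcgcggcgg
The *Rarb* window, chr14:16575427-16575726 on the minus strand, holds its match from -53 to -37 and lies outside the *Rarb* bait, which covers chr14:16818038-16819613 and another start of the gene.
Rarb: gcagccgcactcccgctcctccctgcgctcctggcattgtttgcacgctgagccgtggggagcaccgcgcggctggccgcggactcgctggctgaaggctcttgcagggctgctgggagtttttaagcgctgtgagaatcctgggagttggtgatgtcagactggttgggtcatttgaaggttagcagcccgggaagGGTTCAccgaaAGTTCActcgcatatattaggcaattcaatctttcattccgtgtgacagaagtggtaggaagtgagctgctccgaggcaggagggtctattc
The *Rarb* element is a textbook response element, and no bait of these libraries held the start beside it.

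Contacts listed in both libraries of at least 1 condition are called recurrent. The same search in the 182 recurrent contacts found DR5 letters in 7, on 6 distinct fragments, where fragments of like length (within 10%) held them in 1.4% of cases on average. The stretch of the *Rara* contact chr11:98955192-98966886 around its match (chr11:98959968-98960064, plus strand) is shown because the match lies 388 bases before another *Rara* start site, at position 98960412.
Rara contact: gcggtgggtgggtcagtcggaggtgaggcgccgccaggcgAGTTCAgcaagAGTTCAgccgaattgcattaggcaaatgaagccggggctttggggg
The stretch of a fragment contacted by both *Cyp26a1* and *Cyp26c1* (chr19:37901836-37901899, plus strand) is shown because the match lies 340 bases before a start site of *Myof*.
Cyp26a1 and Cyp26c1 contact: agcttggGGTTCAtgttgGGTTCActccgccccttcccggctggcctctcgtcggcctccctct
For CTCF, a protein often found where chromatin contacts are anchored, the letters of the CTCF core motif were searched on both strands. They were in 49 of the 182 recurrent contacts (26.9%), against a mean of 16.8% of fragments of like length, and in 7 of the 25 contacts listed in all 14 libraries (28.0%, against 15.7%). Of the 73 matches, 40 lay in soft-masked repeats, and 26 of the 182 contacts held a match outside repeats. The stretch shown (chr6:84095162-84095253, plus strand) is from the fragment that had, with its neighbour, the highest mean score of all *Cyp26b1* contacts, and its capitals mark the CTCF letters.
Cyp26b1 contact: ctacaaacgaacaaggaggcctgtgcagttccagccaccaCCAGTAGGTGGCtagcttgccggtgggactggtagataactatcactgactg
The 185 bases of a whole fragment listed with *Cyp26b1* in all 14 libraries (chr6:84096725-84096909, plus strand) are shown for the scale of a HindIII fragment, with no match to either search.
Cyp26b1 short contact: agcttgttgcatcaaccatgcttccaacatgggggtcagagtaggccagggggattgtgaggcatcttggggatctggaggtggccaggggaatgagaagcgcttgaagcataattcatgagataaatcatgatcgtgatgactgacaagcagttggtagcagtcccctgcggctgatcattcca
A match is a description of letters and does not show that a protein was bound.

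The 14 libraries listed between 113670 and 186248 same-chromosome pairs, with the fewest in the 2 knockout libraries (113670 and 120854), and all others listed at least 134063. Read depth is unknown. Md replicate 1 and E12.5 pinna replicate 2, whose names say that they were merged, held 46.53% and 62.73% of their pairs between chromosomes, against at most 5.61% in the other 12, and only same-chromosome pairs are counted as contacts here. The 10 baits had 423 distinct contacts, of which 161 were listed in 1 library only (38.1%, against 63.4% of all contacts in the series). Of the 423, 182 were recurrent and 25 were listed in all 14 libraries (5.91%, against 1.854% of all contacts). The median distance of the recurrent contacts was 240.0 kb between fragment middles, against 308.1 kb over all recurrent contacts, and 12.6% joined 2 baits, against 16.1%. By annotation, 78 recurrent contacts overlapped an exon, 59 lay in introns and 45 between genes. The genes differed in where their contacts lay: on 1 side only for *Rara*, *Aldh1a2* and *Aldh1a3*, mostly downstream for *Cyp26a1*, *Cyp26c1* and *Crabp1*, and on both sides for *Cyp26b1*, *Rarg* and *Crabp2*. Contact numbers were not corrected for the length of a bait, which ran from 1576 bp for *Rarb* to 23001 bp for *Rara*.

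**Figure D1:**
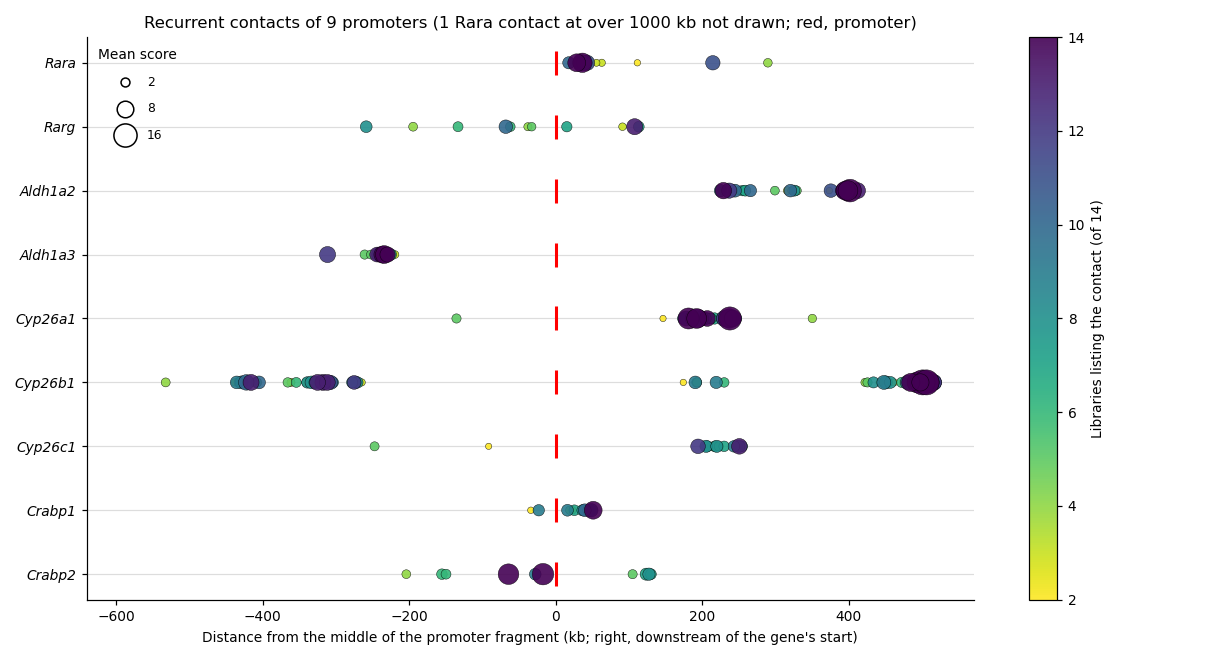
Recurrent contacts of the 9 promoters that had any, by distance in kb from the promoter fragment (x axis, downstream of the gene's start to the right); point size gives the mean CHiCAGO score over 14 libraries and colour the number of libraries listing the contact. The 23 contacts of Aldh1a2 all lie downstream, the 11 of Aldh1a3 all upstream, and Cyp26b1 has 30 on each side.

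*Rara* and *Rarg* had 12 and 11 recurrent contacts, more than 74.9% and 72.7% of the baits with a start site, and the third receptor gene, *Rarb*, had 0, as did 15.2% of all baits. *Rara*, which encodes RARα, had a bait at chr11:98921166-98944166 (plus strand) with its 12 contacts all downstream. Its strongest contacts lay in the body of *Rara* itself. The intronic fragment chr11:98968324-98969320, 36.2 kb away, scored 9.66 and 12.48 in FNP, 7.83 and 14.95 in Mx, 11.25 and 13.6 in Md, 10.9 and 13.6 in wild-type PA2, 6.46 and 8.78 in knockout PA2, 12.2 and 12.6 in E12.5 pinna, and 9.46 and 11.7 in E14.5 pinna. The exonic fragment with the other *Rara* start site, 28.4 kb away, was likewise listed in all 14 libraries (mean score 9.36), with its lowest scores, 5.51 and 6.58, in the knockout. The 8 recurrent fragments from *Rara* to *Top2a*, which encodes DNA topoisomerase II alpha, had summed scores of 12 and 15.4 in the knockout and between 39.1 and 77.0 in the other 12 libraries, with no overlap. A farther contact with an exonic fragment of *Ccr7*, a chemokine receptor gene 214.2 kb away, was listed in 11 libraries and in neither knockout library.

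*Rarg*, which encodes RARγ, had a bait at chr15:102255588-102262703 (minus strand) and no contact that was listed in all 14 libraries. Of its recurrent contacts, 7 joined it to another bait (63.6%). Its most frequent partner was the bait with the start of *Soat2*, a cholesterol-esterifying enzyme, 107.5 kb downstream, listed in 13 libraries with a mean score of 7.51. The bait of *Pfdn5*, a prefoldin chaperone subunit, 68.4 kb upstream, was listed in 10 libraries, and that of *Tarbp2*, a cofactor of Dicer, 258.9 kb upstream, in 8. The partners of *Rarg* were thus mainly promoters of neighbouring genes. For *Rarb*, which encodes RARβ, 1 contact each was listed in Mx replicate 1, Md replicate 1 and knockout replicate 1, and 0 in the other 11 libraries. *Rarb* has 5 further annotated start sites outside this bait, *Rarg* 5, *Cyp26b1* 3, *Aldh1a3* 2 and *Rara* 1, and these starts lie in no bait of the lists, so that contacts from them were not measured as promoter contacts.

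The promoters of the RA-producing enzymes had recurrent contacts at 219.7 kb or more only, and none nearer to the gene. *Aldh1a2* encodes the main RA-synthesising enzyme of the early embryo. Its bait at chr9:71211676-71223094 (plus strand) had 23 recurrent contacts, all downstream, in runs near *Polr2m* (224.6 to 265.5 kb, 9 fragments), over *Myzap* (298.9 to 328.5 kb, 6 fragments) and up to *Cgnl1* (373.2 to 411.7 kb, 8 fragments). The strongest was an intergenic fragment at chr9:71616532-71621156, 5.4 kb from *Cgnl1*, which encodes a junction protein. It scored 11.8 and 13.0 in FNP, 14.1 and 13.5 in Mx, 14.6 and 18.45 in Md, 21.3 and 18.0 in wild-type PA2, 15.6 and 13.1 in the knockout, 15.2 and 14.9 in E12.5 pinna, and 16.1 and 14.55 in E14.5 pinna. That contact and 4 others (chr9:71615395-71616531, chr9:71610381-71615394, chr9:71609993-71610380 and chr9:71443702-71448184) were listed in all 14 libraries. The outer run was thus present in every condition, whereas the 6 fragments over *Myzap* varied. Their summed score was 5.1 and 5.3 in FNP, between 18.9 and 32.8 in Mx, Md and the knockout, and between 0.0 and 17.5 in wild-type PA2 and pinna, where 1 library of PA2 and 1 of E12.5 pinna listed none of them.

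*Aldh1a3*, the other RA synthase of the list, active in eye and nasal development, had a bait at chr7:66423794-66428427 (minus strand) with 11 recurrent contacts, all upstream. Of these, 10 lay 219.7 to 261.0 kb away in *Asb7*, a gene for an E3 ligase adaptor, and 1 was the bait of *Cers3*, a ceramide synthase, 311.7 kb away. The exonic *Asb7* fragment chr7:66657960-66662639 scored between 7.36 and 11.9 over the 14 libraries (mean 9.30), and its neighbours chr7:66662640-66663228 (mean 8.43) and chr7:66653938-66657959 (mean 6.69) were also listed in all 14. The *Cers3* contact was listed in 12 libraries and missed in knockout replicate 1 and E14.5 pinna replicate 1. *Aldh1a3* had between 6 and 12 contacts in every library.

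*Cyp26a1* and *Cyp26c1* lie side by side, with start sites 12.2 kb apart, and their promoters contacted the same fragments downstream. The *Cyp26a1* bait (chr19:37696508-37702945) had 26 recurrent contacts, 25 of them downstream, and the *Cyp26c1* bait (chr19:37684667-37688884) had 16, of which 14 were shared (53.8% of those of *Cyp26a1* and 87.5% of those of *Cyp26c1*). The shared fragments span chr19:37879826-37944354, over and beside *Myof*, which encodes the membrane-repair protein myoferlin. All 14 had a higher mean score with *Cyp26a1* than with *Cyp26c1*, and the pair of the 2 baits was listed in 0 libraries. The paper states that very close contacts are hard to tell from background in most Hi-C-based methods, so this absence is not read as a result.

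The most strongly contacted shared fragment, intronic to *Myof* at chr19:37936782-37937546, was listed with *Cyp26a1* in all 14 libraries and with *Cyp26c1* in 13. With *Cyp26a1* it scored 14.99 and 18.6 in FNP, 20.1 and 20.0 in Mx, 12.1 and 15.4 in Md, 18.5 and 21.5 in wild-type PA2, 12.6 and 16.2 in the knockout, 14.1 and 12.8 in E12.5 pinna, and 10.48 and 16.55 in E14.5 pinna. With *Cyp26c1* it was absent from E12.5 pinna replicate 1 and otherwise scored between 5.26 and 10.9. The intergenic fragments chr19:37879826-37881645 and chr19:37891271-37892307, next in strength for both genes, had mean scores of 13.1 and 11.6 with *Cyp26a1* and of 6.12 and 4.18 with *Cyp26c1*. Of the other contacts of *Cyp26a1*, chr19:37936140-37936781, chr19:37937547-37944354 and chr19:37903899-37908760 were also listed in all 14 libraries. Over the 23 recurrent fragments at *Myof*, the summed score of *Cyp26a1* was 198.8 and 198.0 in wild-type PA2, the highest of all conditions, 93.9 and 97.8 in the knockout, the lowest, and between 126.3 and 179.3 in the other 10 libraries. Over its 14 fragments there, *Cyp26c1* had 76.8 and 75.5 in wild-type PA2, 62.8 and 48.0 in the knockout, 31.4 and 32.9 in E12.5 pinna, and 50.7 and 46.6 in E14.5 pinna. FNP had 53.7 and 24.8, the latter the lowest of all libraries, and Mx and Md had between 45.8 and 64.9.

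**Figure D2:**
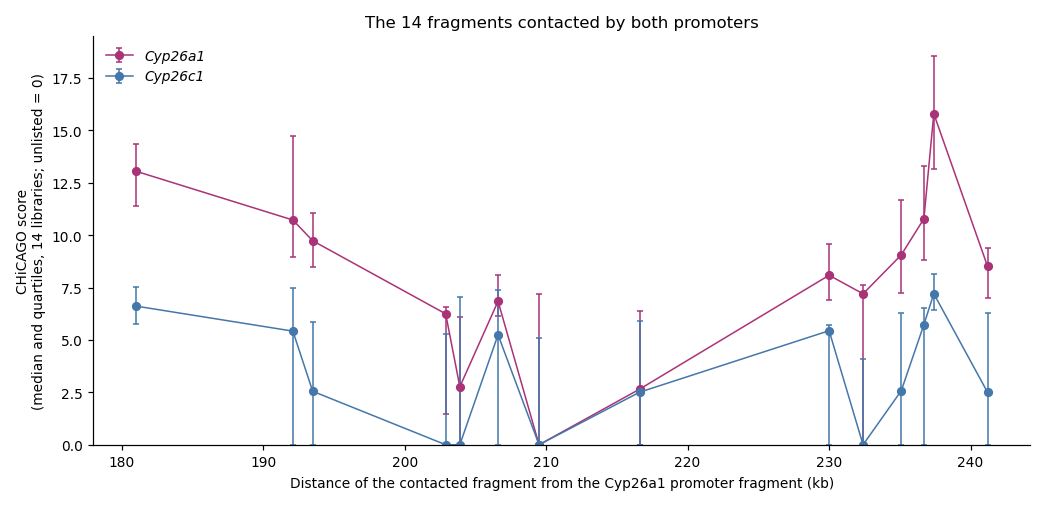
CHiCAGO score (y axis, median and quartiles over 14 libraries, unlisted pairs as 0) of the 14 fragments contacted by both promoters, by distance in kb from the Cyp26a1 promoter (x axis). Both promoters peak on the same fragments, and the mean score was higher at Cyp26a1 for all 14.

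*Cyp26b1*, which encodes the enzyme that clears RA from skeletal and other mesenchyme, had the most contacts of the 10. Its bait (chr6:84592562-84596167, minus strand) had 60 recurrent contacts, more than 98.8% of the baits with a start site, whose median was 4. They lay 30 on each side: 24 of the downstream fragments were in *Dysf*, which encodes the membrane-repair protein dysferlin, 421.9 to 517.9 kb away, and 29 of the upstream fragments were in *Exoc6b*, an exocyst subunit gene, 265.1 to 438.3 kb away. The remaining upstream fragment was a bait at *Spr*, the sepiapterin reductase gene, 532.6 kb away.

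The strongest contacts of *Cyp26b1* were 2 neighbouring exonic fragments of *Dysf*, both with a mean score of 18.8. The first, chr6:84086060-84090915, scored 16.6 and 17.6 in FNP, 12.4 and 16.45 in Mx, 20.5 and 18.65 in Md, 20.3 and 17.75 in wild-type PA2, 14.9 and 12.1 in the knockout, 17.55 and 17.8 in E12.5 pinna, and 26.1 and 34.2 in E14.5 pinna. The second, chr6:84090916-84096724, scored between 14.1 and 20.6 in the 10 E10.5 libraries, 21.6 and 29.8 in E12.5 pinna, and 26.95 and 25.04 in E14.5 pinna. The first was thus above all other libraries at E14.5 only, and the second at both pinna stages. Also listed in all 14 libraries were chr6:84085407-84085969 (mean 13.45), chr6:84096910-84104384 (mean 13.2), the bait chr6:84106923-84112965 (mean 9.61) and the fragment of 185 bp printed above (mean 8.68).

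Summed over the 24 fragments in *Dysf*, the score of *Cyp26b1* was 133.9 and 155.5 in FNP, 91.1 and 127.8 in Mx, 122.6 and 110.3 in Md, 124.9 and 98.9 in wild-type PA2, and 140.9 and 131.5 in the knockout. It was 177.9 and 228.0 in E12.5 pinna and 221.6 and 274.0 in E14.5 pinna, so the pinna libraries did not overlap any E10.5 library. Over 14 fragments of *Exoc6b* (304.1 to 366.0 kb), the sums were 73.8 and 88.9 in E12.5 pinna, then 94.0 and 103.7 in E14.5 pinna. FNP had 73.3 and 49.0 there, and the other 8 E10.5 libraries had between 31.4 and 44.6. Over 10 fragments of *Exoc6b* (405.2 to 438.3 kb), pinna had between 47.0 and 91.8 and the E10.5 libraries at most 41.8. Nearer runs did not rise in pinna. The 4 fragments 173.9 to 192.7 kb downstream summed to 24.8 and 16.2 in FNP and 14.6 and 12.7 in wild-type PA2. They had 5.1 and 5.0 in E12.5 pinna and 0.0 and 6.3 in E14.5 pinna. The 5 fragments 265.1 to 278.1 kb upstream had 28.0 and 23.8 in FNP and between 5.5 and 24.3 in pinna. Runs and sums were chosen after their values were seen and were not tested.

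**Figure D3:**
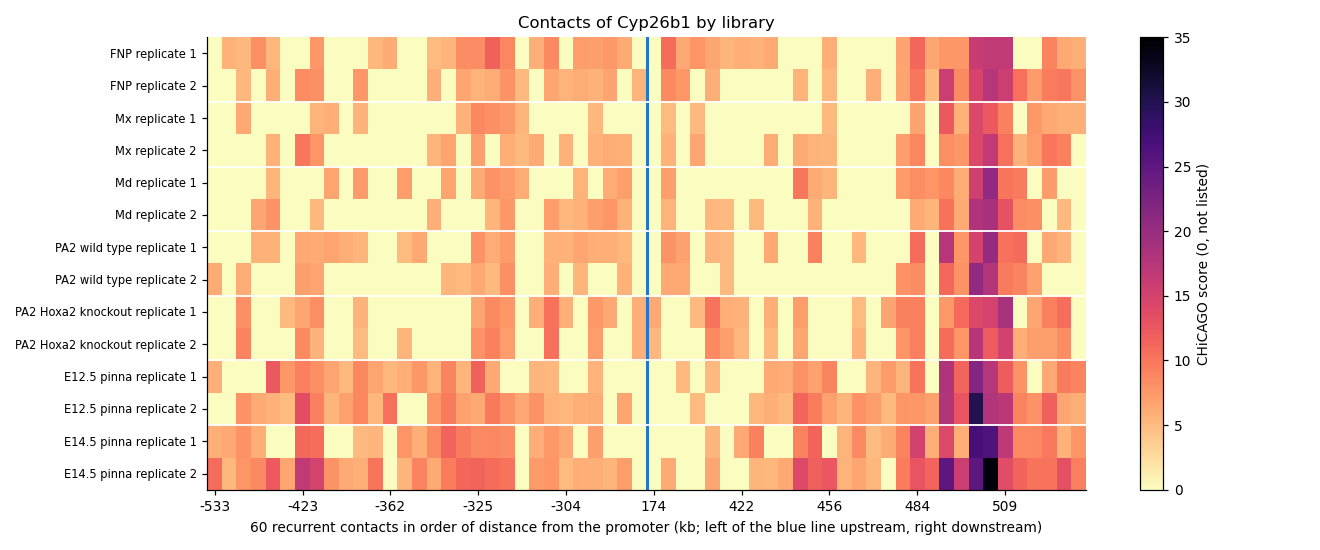
CHiCAGO score (colour, 0 where a pair was not listed) of the 60 recurrent contacts of Cyp26b1 in 14 libraries (rows), in order of distance in kb from the promoter (columns; upstream left of the blue line, downstream right). The darkest columns are the Dysf fragments 484.4 to 508.7 kb downstream, with the highest score, 34.2, in E14.5 pinna replicate 2.

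The genes of the RA-binding proteins differed in their partners. *Crabp1*, a marker of neural crest that binds RA in the cytoplasm, had a bait at chr9:54763764-54777055 (plus strand) and 13 recurrent contacts, all between genes and within 50.9 kb. The farthest of them, chr9:54820650-54821959, was its strongest and the only one listed in all 14 libraries. It scored 8.84 and 14.85 in FNP, 9.09 and 10.7 in Mx, 5.99 and 6.67 in Md, 6.78 and 7.51 in wild-type PA2, 11.9 and 10.35 in the knockout, 8.22 and 9.20 in E12.5 pinna, and 9.23 and 11.5 in E14.5 pinna. The next by mean score were chr9:54817199-54820204 (5.10) and chr9:54808567-54811065 (4.55), each listed in 10 libraries. Summed over the 11 downstream fragments, *Crabp1* had 80.5 and 87.3 in FNP, 53.5 and 59.5 in Mx, 29.6 and 13.4 in Md, 29.1 and 24.5 in wild-type PA2, 17.3 and 16.8 in the knockout, 50.7 and 48.2 in E12.5 pinna, and 43.8 and 43.7 in E14.5 pinna. FNP lay above every other library, and Md, PA2 and the knockout below Mx and pinna.

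*Crabp2*, whose protein delivers RA to the nuclear receptors, had a bait at chr3:87940747-87954277 (plus strand) and 10 recurrent contacts, of which 7 joined it to another bait (70.0%). The bait with the starts of *Isg20l2* and *Rrnad1*, 17.6 kb upstream, and that of *Prcc*, 64.7 kb upstream, were listed in all 14 libraries, with mean scores of 13.6 and 12.6. The *Prcc* contact ranged from 8.15 in knockout replicate 1 to 22.3 in FNP replicate 1. A fragment within *Ttc24*, chr3:88074203-88074858, followed with a mean score of 4.22 and was listed in 8 libraries. Like *Rarg*, *Crabp2* was thus linked mainly to promoters of its neighbours.

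**Figure D4:**
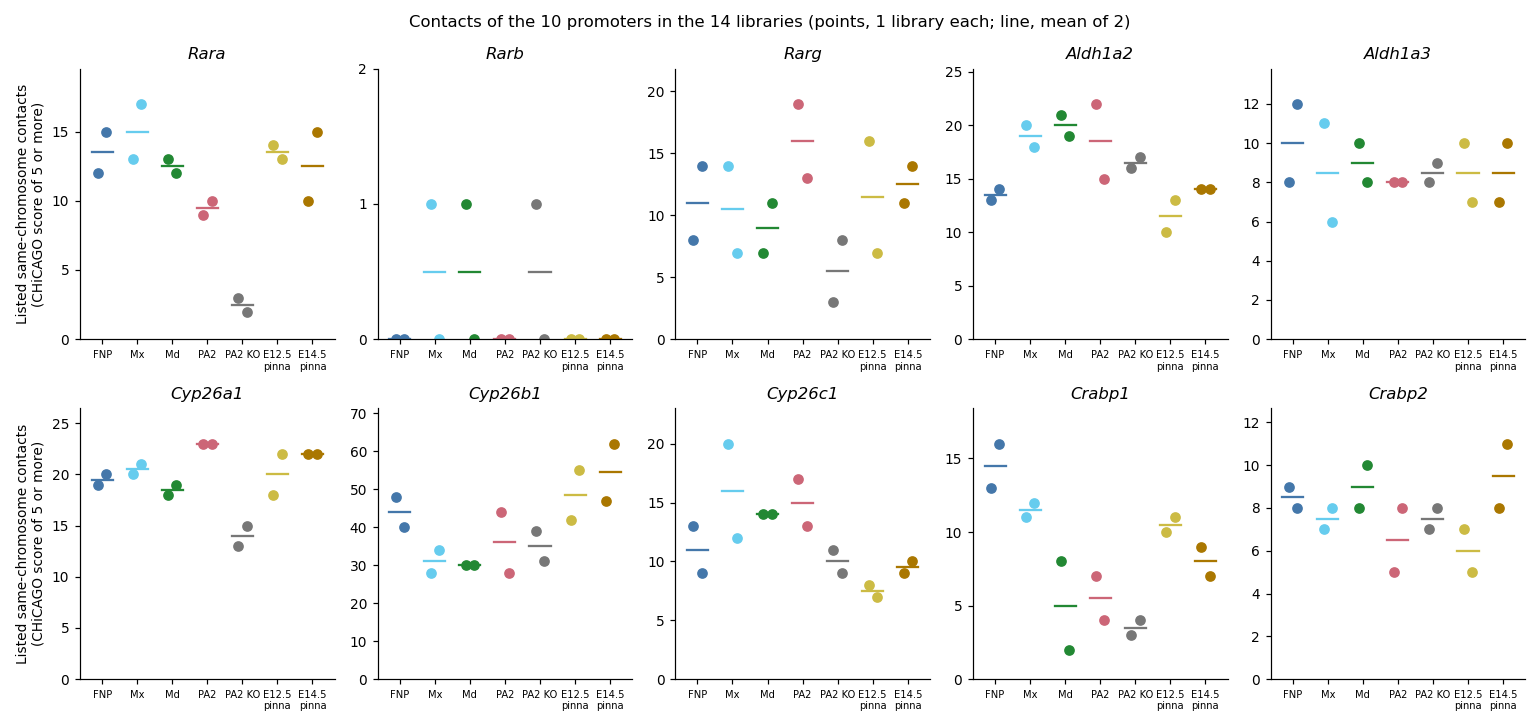
Number of contacts (y axis, listed same-chromosome pairs with a CHiCAGO score of 5 or more) of each promoter in each of 14 libraries, by condition (x axis); each point is 1 library and the line is the mean of 2. PA2 KO is the Hoxa2 knockout. Rara and Cyp26a1 are lowest in the knockout, Cyp26b1 is highest in pinna and Crabp1 highest in FNP.

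To compare conditions, the number of contacts of each bait was scaled by the library's same-chromosome total and tested with limma across all baits with a mean of at least 5 contacts, and each pair listed in at least 2 of the libraries compared was tested with limma on asinh of the score. p-values were adjusted over all baits or pairs (Benjamini-Hochberg). *Rarb* was below the minimum throughout, and *Crabp1* was below it in the comparison with the knockout. Differences in contact number are on a log2 scale and differences in score on the asinh scale.

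The first comparison asked whether contacts of the 10 promoters differ between CNCCs that express *Hoxa2* (wild-type PA2 and pinna, 6 libraries) and those that express no *Hox* gene (FNP, Mx and Md, 6 libraries). Of the first 6 libraries 4 are pinna of E12.5 or E14.5 and all of the second 6 are E10.5, so that *Hoxa2* expression and stage cannot be told apart over the whole groups. *Cyp26b1* had 44 and 28 contacts in wild-type PA2, 42 and 55 in the younger pinna and 47 and 62 in the older, and it had 48 and 40 in FNP, 28 and 34 in Mx, and 30 and 30 in Md. The groups overlapped, and the difference of 0.43 ± 0.19 (SE) had an unadjusted p of 0.0363 and an adjusted p of 0.236 (limma). None of the 9 promoters tested passed the adjusted threshold, where 1.43% of all baits did. An unadjusted p below the threshold of 0.05 was found for 1 of the 9 and for 1947 of all 10493 baits tested. Of 250 pairs tested, 0 passed, with 0.0234% of all pairs passing. Of the 250, 14 had an unadjusted p below 0.05, as did 18621 of all 286702 pairs tested. The smallest p was that of *Cyp26b1* with an intronic fragment of *Exoc6b*, chr6:85015735-85018455, listed in 6 of 6 libraries with *Hoxa2* and in 2 of 6 without. Its mean scores were 10.7 and 3.04, and the difference of 2.04 ± 0.58 had an adjusted p of 0.326 (limma). The same contact was listed in both knockout PA2 libraries, at 6.55 and 8.49, against 6.41 and 7.09 in wild-type PA2. The median difference of the tested pairs was 0.00953, against -0.00782 over all pairs.

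Within the *Hox*-negative populations, FNP (2 libraries) was compared with Mx and Md (4 libraries). *Cyp26b1* had 48 and 40 contacts in FNP and at most 34 in Mx and Md, a difference of 0.65 ± 0.23 (unadjusted p = 0.0130, adjusted p = 0.699, limma). *Crabp1* had 13 and 16 contacts in FNP, 11 and 12 in Mx, and 8 and 2 in Md, a difference of 1.13 ± 0.54 (unadjusted p = 0.0520, adjusted p = 0.777, limma). *Aldh1a2* went the other way, with 13 and 14 contacts in FNP and 18 to 21 in Mx and Md, and its difference of -0.38 ± 0.26 had an unadjusted p of 0.157 (limma). In these 3 promoters of the 9 tested the groups did not overlap, as in 14.9% of all baits tested, and no difference passed the threshold. No bait of the whole series passed in this comparison (0%), although 671 had an unadjusted p below 0.05. No pair passed either (0% of all pairs and 0 of 182 pairs of these promoters). Of the 182, 10 had an unadjusted p below 0.05, as did 7860 of all 181099 pairs tested. The pair with the smallest p joined *Crabp1* to chr9:54791113-54795105, 22.7 kb downstream, with scores of 6.61 and 5.25 in FNP and 0 in Mx and Md. Its difference of 2.47 ± 0.43 had an adjusted p of 0.0654 (limma), and it passed at 0.0492 when the means of all 7 conditions were fitted together.

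The third comparison followed PA2 to the pinna it forms (2 libraries at E10.5 against 4 at E12.5 and E14.5), so that stage and tissue change together. *Cyp26c1* had 17 and 13 contacts in PA2 and 8, 7, 9 and 10 in pinna, a difference of -0.95 ± 0.35 (unadjusted p = 0.0182, adjusted p = 0.210, limma). *Aldh1a2* had 22 and 15 in PA2 and 10, 13, 14 and 14 in pinna (-0.68 ± 0.33, unadjusted p = 0.0578, adjusted p = 0.324, limma). *Cyp26a1* had 23 and 23 in PA2 and 18, 22, 22 and 22 in pinna (-0.30 ± 0.28, unadjusted p = 0.303, limma). In these 3 promoters of the 9 tested the groups did not overlap, as in 26.8% of all baits tested, and no difference passed. No promoter of the 9 passed, against 1.07% of all baits. Among pairs, 10 of 187 passed (5.35%), and 6.19% of all pairs did, a share below that background. All 10 were listed in every library of 1 side and in none of the other. None passed if a pair had to be listed in at least 3 libraries, under which fewer pairs were tested and 0.00457% of all pairs passed. Without replicate 1 of E12.5 or of E14.5 pinna, 20 or 16 passed (11.4% and 9.14%), where 10.7% and 10.1% of all pairs did. The calls are therefore given as patterns of listing.

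Of these 10 pairs, 8 were higher in pinna and 2 lower, against 3598 higher and 7505 lower over all pairs that passed. With an equal number of pairs per library, 13 passed (9.09%, against 7.19% of all pairs). Of these, 6 were higher and 7 lower, against 2345 and 7055 over all pairs. *Cyp26b1*, with 63 of the 187 pairs tested, had 7 of the 10, and 6 of its 7 were higher in pinna. The one with the largest difference, chr6:84145874-84147600 in *Dysf*, scored 7.98 and 11.2 in E12.5 pinna, 9.09 and 13.99 in E14.5 pinna, and 0 in both PA2 libraries (3.03 ± 0.31, adjusted p = 0.0135, limma). It was also listed in both knockout libraries and in 3 of the other 6 E10.5 libraries, so it was not particular to pinna. The others that were higher in pinna were chr6:84074684-84078206 and chr6:84118987-84120384 in *Dysf*, and chr6:84932773-84934573, chr6:84902944-84904862 and chr6:84959212-84961450 in *Exoc6b*, with differences between 2.43 and 2.76. Each of them was also listed in one or both FNP libraries, so none was particular to pinna. The seventh, chr6:84362964-84366392, between *Dysf* and *Cyp26b1*, scored 5.15 and 5.12 in PA2 and 0 in pinna (-2.34 ± 0.28). It was also listed in FNP replicate 1, Md replicate 2 and both knockout libraries. *Crabp1* gained chr9:54804568-54808566 in pinna (2.48 ± 0.41, adjusted p = 0.0200, limma), a contact that FNP and Mx also listed in both libraries. *Crabp2* was listed with the *Ttc24* fragment chr3:88074203-88074858 in all 4 pinna libraries (2.73 ± 0.34) and with chr3:88049609-88054876, in *Gpatch4*, in both PA2 libraries (-2.43 ± 0.31). The *Ttc24* fragment was also listed in FNP replicate 2, Md replicate 2 and both knockout libraries. The *Gpatch4* fragment was also listed in both FNP libraries and Md replicate 1.

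**Figure D5:**
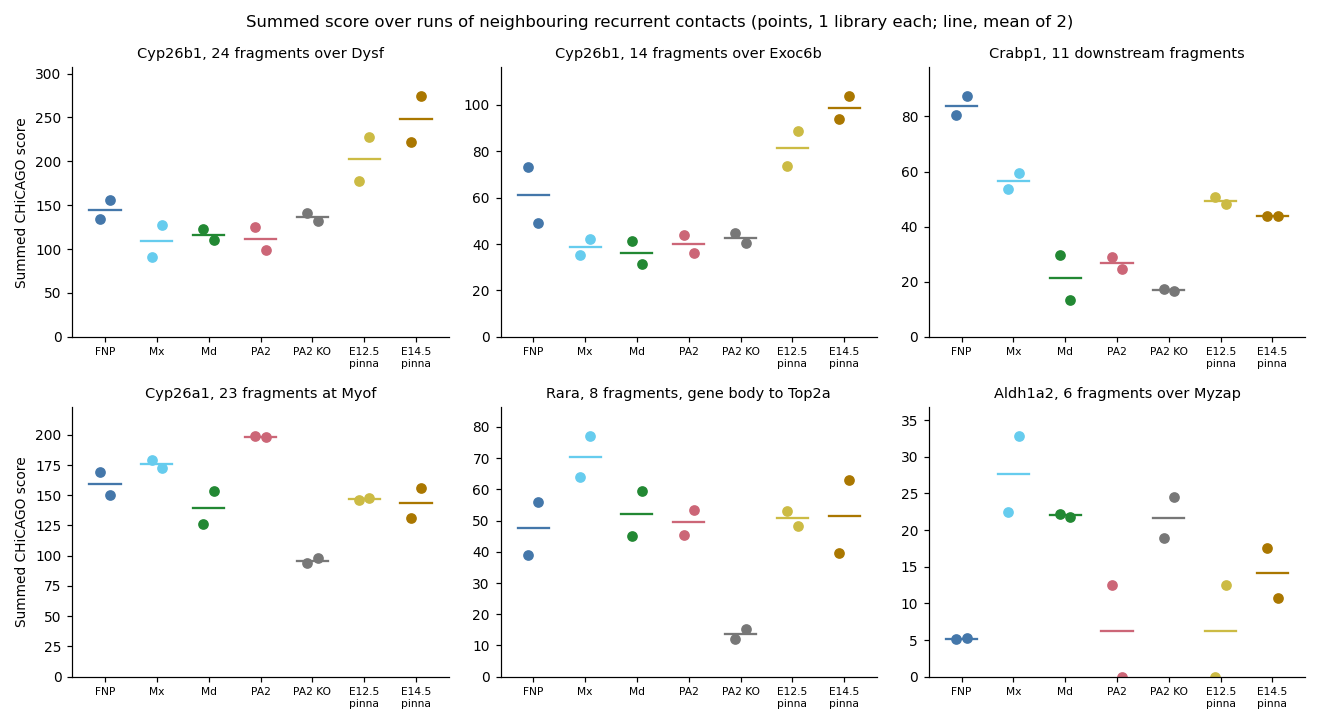
Summed CHiCAGO score (y axis) over 6 runs of neighbouring recurrent contacts, by condition (x axis); each point is 1 library and the line is the mean of 2. PA2 KO is the Hoxa2 knockout. The pinna libraries lie above all others for both Cyp26b1 runs drawn, which does not hold for its nearer runs. FNP is highest for Crabp1, and the knockout is lowest for Cyp26a1 and Rara.

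Loss of *Hoxa2* was compared in E10.5 PA2 with 2 libraries of each genotype. *Rara* had 9 and 10 contacts in wild-type PA2 and 3 and 2 in the knockout, a difference of -1.47 ± 0.52 (unadjusted p = 0.0124, adjusted p = 0.137, limma). *Rarg* had 19 and 13 contacts in the wild type and 3 and 8 in the knockout, a difference of -1.29 ± 0.41 (unadjusted p = 0.00644, adjusted p = 0.107, limma). *Rara* contacts were also fewer in the knockout than in all 12 wild-type libraries, the next lowest having 9, while Mx replicate 2, Md replicate 1 and E12.5 pinna replicate 2 had 7 *Rarg* contacts. *Cyp26a1* had 23 and 23 contacts against 13 and 15. Its difference of -0.42 ± 0.26 had an unadjusted p of 0.131 (limma). After scaling, *Crabp2* (0.51 ± 0.41), *Aldh1a3* (0.36 ± 0.36), *Cyp26b1* (0.27 ± 0.24) and *Aldh1a2* (0.15 ± 0.28) had values above 0, with unadjusted p-values of 0.232 or more. No promoter of the 8 tested passed, against 2.03% of all baits. An unadjusted p below 0.05 was found for 2 of the 8 and for 1763 of all 9014 baits tested. *Rarg* passed when the replicate number was a block (adjusted p = 0.0342, limma), a fit in which 6.12% of all baits passed. Over 10 settings, including those that left 1 library of a genotype, its difference ran from -1.88 to -0.69. The knockout libraries listed the fewest pairs of the series, and although contact numbers were scaled by that total, its part in the lower numbers was not tested.

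Among pairs, 44 of 123 passed in this comparison (35.8%), and 35.8% of all pairs passed, so that nothing about these promoters is read from the count. Of the 44, 37 were listed in both libraries of 1 genotype and in neither of the other. Requiring listing in at least 3 libraries leaves such pairs out, and 0 of all 60731 pairs then tested passed. That setting therefore cannot show whether the 44 hold. Of the 44, 13 were higher in the knockout and 31 lower, against 20313 higher and 23185 lower over all pairs that passed. With an equal number of pairs per library, 41 passed (36.6%, against 36.1% of all pairs). Of these, 17 were higher and 24 lower, against 21596 and 16487 over all pairs, so no direction is read from this split. The 10 with the largest difference included *Rara* with chr11:98966887-98967974 in its own intron (wild type 7.40 and 9.67, knockout 0) and with *Ccr7* (7.15 and 8.30, knockout 0), and *Rarg* with the *Pfdn5* bait (8.90 and 7.03, knockout 0). Lower also were *Cyp26a1* with chr19:37908761-37909659, chr19:37872272-37875125 and chr19:37875126-37879825, *Cyp26c1* with chr19:37891271-37892307, and *Aldh1a2* with chr9:71448185-71459855, all at 0 in the knockout. Higher in the knockout, and at 0 in the wild type, were *Crabp2* with the *Ttc24* fragment (7.69 and 8.81) and *Aldh1a3* with chr7:66645425-66646150 in *Asb7*. A score of 0 stands here for any score below 5.

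Of 13 further genes of RA transport, synthesis and reception, *Rbp4* had no bait of its own. The retinaldehyde reductase *Dhrs3* had 99 recurrent contacts, 32 of them in all 14 libraries, and *Fabp5*, an alternative RA carrier, had 25, with 12 in all 14. The vitamin A receptor *Stra6* had 13 and the retinol dehydrogenase *Rdh10* 17. Among receptors, *Rxra* had 8, *Rxrg* 10 and *Rxrb* 27, while the COUP-TF genes *Nr2f1* and *Nr2f2*, which encode repressors of RA response, had 23 and 24. *Lrat*, which esterifies retinol, and *Aldh1a1* had 0. The baits of *Rxrb*, *Rdh10*, *Nr2f1*, *Nr2f2* and *Lrat* also hold start sites of other genes, whose contacts cannot be told apart from theirs. Of these baits 7 to 9 could be tested in each comparison, and 0 passed. Their pairs passed in 0 of 334 cases between *Hoxa2*-expressing and *Hox*-negative CNCCs and 0 of 254 between FNP and Mx with Md. Between pinna and PA2, 7 of 226 passed (5 higher, 2 lower), where 6.19% of all pairs did (3598 higher, 7505 lower). Between genotypes, 52 of 202 passed (37 higher, 15 lower), where 35.8% of all pairs did (20313 higher, 23185 lower). Nothing about these genes is read from the counts or directions.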

How the data were processed

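PCHi-C libraries of sorted mouse CNCCs (2 in each of 7 conditions) were processed by the authors with HiCUP and CHiCAGO on mm10 (HindIII fragments, GRCm38), with bcl2fastq 2.17 named in the submitters' notes. The deposited value is the CHiCAGO score of a pair of fragments, in lists that hold only scores of 5 or more. No read counts are in these lists, so depth is unknown and no counting interval was computed.

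Unlisted pairs were set to 0. With limma 3.58.1 in R 4.3.3 (lmFit, eBayes with trend), asinh of the score was tested for pairs listed in at least 2 of the libraries compared, and log2 of the number of same-chromosome contacts plus 0.5, scaled by the library's total, for baits with a mean of at least 5. Each comparison used only its own groups, and p-values were adjusted over all pairs or baits (Benjamini-Hochberg, threshold 0.05). The fits were also run on real scores shuffled among libraries, with a known change added to some pairs. There the fit of 2 against 2 libraries made many calls among unchanged pairs, so its pair calls are given only as patterns of listing.

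The members and lists were chosen with earlier results of these data known. Named were, for each promoter, the 3 recurrent contacts with the highest mean score and up to 5 listed in all 14 libraries, with coding genes starting in a bait at the other end. For each comparison, the pairs or baits past the threshold were named, or the 10 with the largest difference among those whose groups did not overlap, or the pair with the smallest p where none passed. The sixth fragments of *Cyp26a1* and *Cyp26b1*, the *Ccr7* contact in the text on *Rara*, runs of fragments, and promoters with an unadjusted p above the threshold were added after their values were seen. Replicate numbers were not taken to pair libraries. Start sites were from GENCODE vM21 and promoter windows from RefSeq (GRCm38.p6), where *Aldh1a3* and *Crabp2* had none here. Of the further pathway genes, 1 is counted in the totals and is not reported here by itself.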

Additional observations from a re-analysis of the deposited data

Results flagged for a closer look

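*Cyp26a1* had 18 contacts in E12.5 pinna replicate 1, a value that stood apart from the other libraries of its groups by Dixon's 95% critical value. Among the 4 pinna libraries the other 3 each had 22, and among the 6 libraries of wild-type PA2 and pinna the next lowest was 22 and the highest 23. Of 38 groups examined in this way 2 were past the critical value, and chance passes about 1 in 20. Both rest on the same library.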

How the results depend on the processing

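For the comparison of PA2 and pinna with FNP, Mx and Md, 7 pairs of these promoters passed with the means of the 7 conditions. They were 2.8% of their pairs tested, against 5.41% of all pairs, and 0 passed in each other fit. Between FNP and Mx with Md, 8 passed with an equal number of pairs per library (6.02%, against 3.41% of all pairs). With the 7 means 4 passed (2.2%, against 2.96%), and with 1 Mx or Md library left out 0 passed. Fits with a lone FNP library are not read. Between pinna and PA2, 10 passed as reported (5.35%, against 6.19% of all pairs). An equal number of pairs per library gave 13 (9.09%, against 7.19%), and the 7 means gave 7 (3.74%, against 7.24%). With listing in at least 3 libraries or in at least 1, or with the score in place of asinh, 0 passed. At most 0.0226% of all pairs did so in these 3 fits. With 1 pinna library left out, 11 to 20 passed (6.15% to 11.4%, against 9.82% to 10.7% of all pairs). Between genotypes, 44 passed as reported (35.8%, as over all pairs) and 18 with the 7 means (14.6%, against 19.3% of all pairs). With listing in at least 3 libraries, 0 passed, as over all pairs. With 1 library left out, a lone library of a genotype was assumed to vary like the other group, so those fits are not read. Listing in at least 4 of the 14 libraries, a setting added after seeing the data, gave 10 between pinna and PA2 (5.65%, against 5.71% of all pairs). Between genotypes it gave 32 (19.3%, against 20%). The cause of these differences was not tested.

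Among fits that kept at least 2 libraries per group, the only promoter to pass by contact number was *Rarg*, between genotypes with a replicate block. In that fit 6.12% of all baits passed, against 2.03% as reported. With the replicate number as a block, 0 pairs passed in each of the first 2 comparisons, against 0.0307% and 0% of all pairs. In that fit 10 passed between pinna and PA2 (5.35%, against 6.14% of all pairs). Between genotypes 38 passed (30.9%, against 31.9%). The replicate numbers were not taken to pair libraries, since the deviations of equal-numbered libraries correlated at 0.002 to 0.069 over 159013 pairs. Of the 182 recurrent contacts, 26 were left at a score of 10 or more and 141 with an equal number of pairs per library, and listing in any 2 libraries gave 262. Other values were single contacts, promoters, recurrent contacts per gene and passing counts of the further pathway genes. Of these, 0 reversed, and 356 kept their side of the threshold or, for counts, stayed within a fixed ratio of the reported count. A further 75 no longer passed, 4 newly passed and 39 counts moved beyond that ratio. Scores below 5 and read depth are unknown, which limits every statement on a contact that was not listed.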

Other observations

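Some recurrent contacts of these promoters with other named genes were described nowhere above, and were picked after their values were seen. *Rara* was listed with a fragment of *Igfbp4*, a binding protein of insulin-like growth factors 111.2 kb away, only in the 2 E14.5 pinna libraries, with scores of 5.32 and 6.61. *Cyp26c1* was listed with a fragment of *Hhex*, a homeobox gene 247.5 kb upstream (chr19:37438407-37440129), in 5 libraries, namely FNP replicate 1, both Mx libraries, Md replicate 2 and wild-type PA2 replicate 1, and in none of the knockout or pinna libraries. *Rarg* was listed with *Amhr2*, the receptor gene of anti-Müllerian hormone 194.9 kb upstream, in both Mx and both E14.5 pinna libraries. None of the 3 was past the threshold in a comparison in which it was tested.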
